A study of Homo sapiens with 18 samples.

Results

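The GATA, TAL1 and partner erythroid factors are 10 genes of 35168 in the deposited tables: GATA1 and GATA2, TAL1 and LYL1, LMO2 and LDB1, KLF1, GFI1B, ZFPM1 and NFE2. They were chosen by symbol, matched to their Ensembl identifiers, and all 10 had counts in at least some libraries. RNA sequencing was done in H1, a human embryonic stem cell line, carried through a hematopoietic differentiation and sampled as undifferentiated cells (D0), as hematopoietic progenitors that the study describes as CD34+/CD45+ (D16) and as mature blood cells (D30). USB1 mutant cells carried a single-base deletion in USB1 that was made with CRISPR/Cas9, and WT cells did not. The study describes it as a loss-of-function mutation associated with disease. USB1 encodes an exonuclease that trims 3′ ends of small RNAs. There were 3 libraries for USB1 mutant and 3 for WT cells on each of the 3 days, 18 in all. The sources used here do not say how many clones gave the mutant libraries, or whether replicates were separate cultures, and the p-values speak only of the spread among these libraries.

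These proteins are the core of the transcriptional machinery that makes red cells, platelets and mast cells out of blood progenitors. GATA1 and GATA2 are zinc-finger proteins that bind the same DNA motif, and in erythroid differentiation GATA1 takes the place of GATA2 at many sites. TAL1, or its relative LYL1, binds an E-box together with an E protein and is joined to GATA factors through the bridging proteins LMO2 and LDB1, while ZFPM1 (FOG1) is a cofactor bound by GATA1, GFI1B is a repressor, KLF1 switches on red cell genes including adult beta-globin, and NFE2 pairs with small MAF proteins at globin and platelet genes.

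Windows around the start of the gene were at hand from RefSeq (GRCh38.p14) for 8 of the 10 genes, 11 windows in all, each with 250 bases before and 50 after the start. LMO2 and NFE2 were not matched. GATA factors bind GATAA, read on either strand, and 4 of the 11 windows held it (1 each for TAL1, LYL1, KLF1 and GFI1B), against 22.7% of the 35116 promoter windows of all genes. The last 120 bases before the start are shown for these 4 genes, 5′ to 3′ on the strand of the gene, because the factors that bind the motif are themselves members. Capitals mark GATAA, or TTATC where it lies on the other strand.
TAL1: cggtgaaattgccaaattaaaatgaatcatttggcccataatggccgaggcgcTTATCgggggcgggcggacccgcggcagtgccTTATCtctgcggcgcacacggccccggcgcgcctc
LYL1: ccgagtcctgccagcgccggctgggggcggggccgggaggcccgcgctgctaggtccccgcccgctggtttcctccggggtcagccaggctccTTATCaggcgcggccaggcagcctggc
KLF1: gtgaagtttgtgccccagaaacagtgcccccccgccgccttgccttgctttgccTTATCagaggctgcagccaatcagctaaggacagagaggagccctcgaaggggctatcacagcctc
GFI1B: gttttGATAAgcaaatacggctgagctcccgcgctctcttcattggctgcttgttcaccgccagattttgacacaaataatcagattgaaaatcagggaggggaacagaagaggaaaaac
The stretches are chr1:47232336-47232455, chr19:13102859-13102978 and chr19:12887202-12887321 on the minus strand and chr9:132978574-132978693 on the plus strand. Counted back from the base before the start as -1, the motif lay at -67 to -63 and -35 to -31 for TAL1, -27 to -23 for LYL1, -66 to -62 for KLF1 and -115 to -111 for GFI1B, the last in the second of its 2 windows. The LYL1 window held a further match after the start, at 2 to 6, outside the bases shown. The composite bound by TAL1 and GATA factors together (CTG, then 7 to 9 bases, then GATAA) was found in 3 of the 11 windows, those of LYL1, KLF1 and GFI1B, against 1.86% of all windows, and each of these matches includes the GATAA shown. The E-boxes CAGCTG and CAGATG were found in 1 window of GATA2 and in 2 windows of GFI1B, against 17.9 and 14.7% of all windows. Of the motifs bound by KLF1, CCACACCC was in none of the 11 windows (3.28% of all) and CCNCNCCC was in 8 of the 11 (56.2% of all). TGAGTCA, bound by NFE2, and its longer form GCTGAGTCA were in none (4.95 and 0.561% of all). These are matches of letters and not shown to be bound in these cells.

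Library totals ran from 4125125 to 19368927 counts, and the lowest was USB1 mutant D30 replicate 3. USB1 mRNA itself did not pass the test on any day, with 86.2 ± 2.57 CPM in USB1 mutant and 79.9 ± 5.70 CPM in WT cells at D0, 54.0 ± 5.73 and 56.2 ± 5.32 CPM at D16, and 56.7 ± 13.0 and 67.0 ± 4.71 CPM at D30 (SD, n = 3 each). Levels are in CPM, counts scaled to the size of the library, which compare a gene between libraries. TPM, which corrects for transcript length, is used where genes are compared with each other. A gene was called where edgeR's quasi-likelihood test gave a Benjamini-Hochberg adjusted p under 0.1 over all genes tested, and log2 fold changes carry their standard error. In bulk samples, fewer cells of a type and less RNA per cell cannot be told apart.

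**Figure D1:**
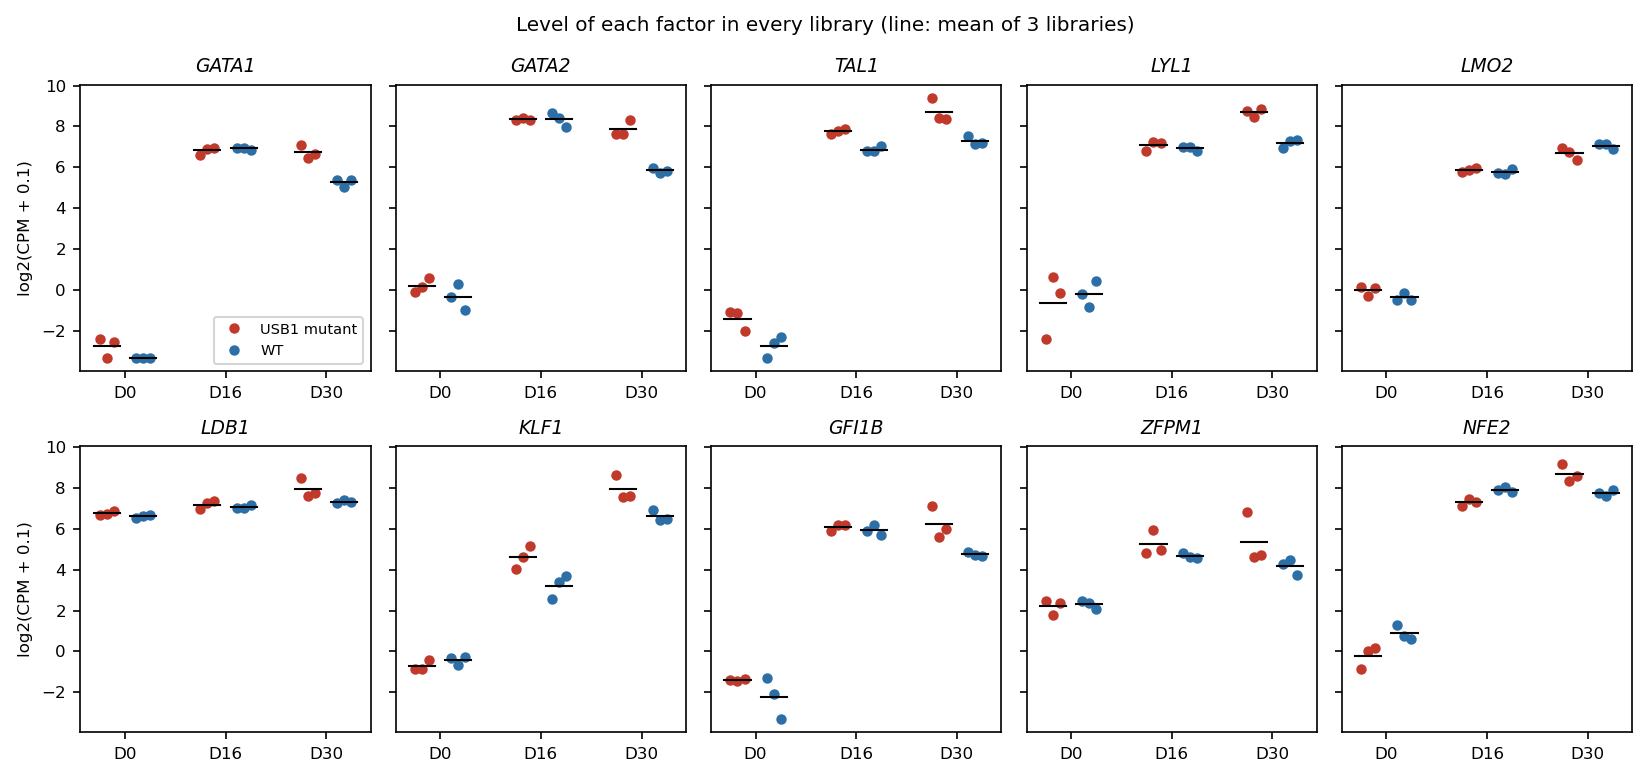
Level of each of the 10 factors in every library, as log2 of CPM plus 0.1, with USB1 mutant (red) left of WT (blue) on each day and a line at the mean of the 3 libraries. Apart from LDB1 and ZFPM1, the factors lie near the bottom at D0 and rise by D16, and at D30 the USB1 mutant libraries lie above WT for all but LMO2.

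In undifferentiated cells, most of the factors were barely detected and none differed by the test between genotypes. LDB1, the bridging protein that is used in many tissues, was the exception, at 101, 106 and 117 CPM in USB1 mutant and 91.7, 98.5 and 103 CPM in WT libraries. GATA1 gave 1, 0 and 1 counts in USB1 mutant and 0, 0 and 0 counts in WT libraries. TAL1 gave 4, 4 and 2 counts in USB1 mutant and 0, 1 and 1 counts in WT libraries. ZFPM1 averaged 4.62 ± 1.10 CPM in USB1 mutant and 4.86 ± 0.659 CPM in WT cells. In TPM, which uses the deposited transcript lengths, ZFPM1 averaged 1.37 ± 0.0503 in USB1 mutant and 2.71 ± 0.507 in WT cells and the groups did not overlap, and with lengths as offsets its log2 fold change was -0.87 (adjusted p = 0.212) in place of -0.07 (adjusted p = 0.924). The other 6 did not exceed 2.32 CPM (NFE2 in WT replicate 1) in any library. Only 4 factors had enough counts to be tested at D0, and 0 of these were called, where 1.07% of 14719 genes were called higher and 1.87% lower. By DESeq2 the number called was also 0, and 1 of the 4 had an unadjusted p under 0.05. That 1 was NFE2, with 5, 10 and 14 counts in USB1 mutant against 30, 24 and 14 counts in WT libraries, which in CPM did not overlap (log2 fold change -1.14 ± 0.37, adjusted p = 0.197). Groups did not overlap for 20.8% of all genes tested at D0.

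All 10 factors were higher at D16 than at D0 in both genotypes, where 36.9% of 16829 genes were called higher in USB1 mutant and 37.0% in WT cells. In all comparisons between days, the day cannot be told apart from the cell population sampled or from a batch of libraries. GATA1, the master regulator of red cells, megakaryocytes and mast cells, had 1200, 1535 and 1766 counts in USB1 mutant and 1032, 1962 and 1576 counts in WT libraries at D16. In USB1 mutant cells GATA1 was 2027-fold higher at D16 than at D0 (95% exact interval 561 to 16745, from 2 counts at D0). In WT cells, with no GATA1 count at D0, it was at least 1512-fold higher, taking a floor of 3 counts over the group, and floor and intervals cover counting error only. TAL1 was 772-fold higher at D16 than at D0 in USB1 mutant cells (420 to 1611) and 2213-fold in WT cells (612 to 18282, from 2 counts at D0). GATA2, the factor of stem and progenitor cells and of mast cells, was 297-fold higher in USB1 mutant (217 to 417) and 401-fold higher in WT cells (281 to 595). The smallest rise was that of LDB1, by 0.44 ± 0.17 on the log2 scale in USB1 mutant (adjusted p = 0.0295) and 0.46 ± 0.17 in WT cells (adjusted p = 0.0223). Without USB1 mutant D16 replicate 3, the LDB1 rise in USB1 mutant cells was 0.35 and no longer called (adjusted p = 0.114). Whether the genotype effect differed between D0 and D16 was tested as an interaction, and 0 of 10 factors were called, none at an unadjusted p under 0.05, where 3.86% of genes were called higher and 3.75% lower. Of the 10, 6 had too few counts at D0 to be tested there, and the interaction has little power for them (SE 1.42 for GATA1). DESeq2 called 1, KLF1, at an adjusted p of 0.0998.

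At D16 TAL1 and KLF1 were higher and NFE2 was lower in USB1 mutant cells. This makes 2 of 10 factors higher, where 13.1% of 14528 genes were called higher, and 1 of 10 lower, where 15.3% were called lower. Groups did not overlap for 3 of the 10, against 38.5% of all genes tested.

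TAL1, the E-box protein needed to form blood from mesoderm and later red cells, measured 196, 221 and 233 CPM in USB1 mutant and 109, 112 and 129 CPM in WT libraries. Every mutant library was above every WT library (log2 fold change 0.85 ± 0.13, adjusted p = 0.00150). KLF1, the late regulator of red cell genes, measured 16.2, 24.1 and 35.8 CPM in USB1 mutant and 5.77, 10.3 and 12.8 CPM in WT libraries. These are low levels, and the groups again did not overlap (1.34 ± 0.31, adjusted p = 0.0121). NFE2 measured 139.6, 176 and 158 CPM in USB1 mutant and 238, 261 and 222 CPM in WT libraries, with no overlap (-0.64 ± 0.13, adjusted p = 0.00789). NFE2 is also transcribed in neutrophils and other granulocytes. These 3 calls were kept under each of the 16 alternative settings tried.

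ZFPM1 is the borderline case at D16. Its level was 28.1, 61.8 and 31.0 CPM in USB1 mutant and 28.4, 24.4 and 23.9 CPM in WT libraries, so that replicate 2 of the mutant stood well above the other libraries while replicate 1 lay among WT values (0.62 ± 0.26, adjusted p = 0.122). In the fit with a replicate block, pairing same-numbered libraries, the log2 fold change was 0.55 and the call was made (adjusted p = 0.05004), and without mutant replicate 2 it was 0.18 (adjusted p = 0.517). In all, 6 of the 16 alternatives called it, with log2 fold changes up to 0.96 (transcript lengths as offsets) and adjusted p down to 0.0416 (no count filter). The deposited mean transcript length of ZFPM1 was 3088 to 3994 bases in USB1 mutant and 4242 to 4371 bases in WT libraries.

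The other 6 factors overlapped between genotypes at D16. GATA1 measured 97.4, 121 and 123 CPM in USB1 mutant and 124, 123 and 116 CPM in WT libraries (-0.13 ± 0.13, adjusted p = 0.509). GATA2 measured 321, 336 and 321 CPM in USB1 mutant and 406, 335 and 251 CPM in WT libraries, where WT libraries were spread on both sides of the mutant ones (-0.06 ± 0.17, adjusted p = 0.834). For LYL1, LMO2, LDB1 and GFI1B the log2 fold changes were 0.12 ± 0.15, 0.07 ± 0.13, 0.09 ± 0.13 and 0.11 ± 0.15, with adjusted p from 0.612 to 0.720.

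**Figure D2:**
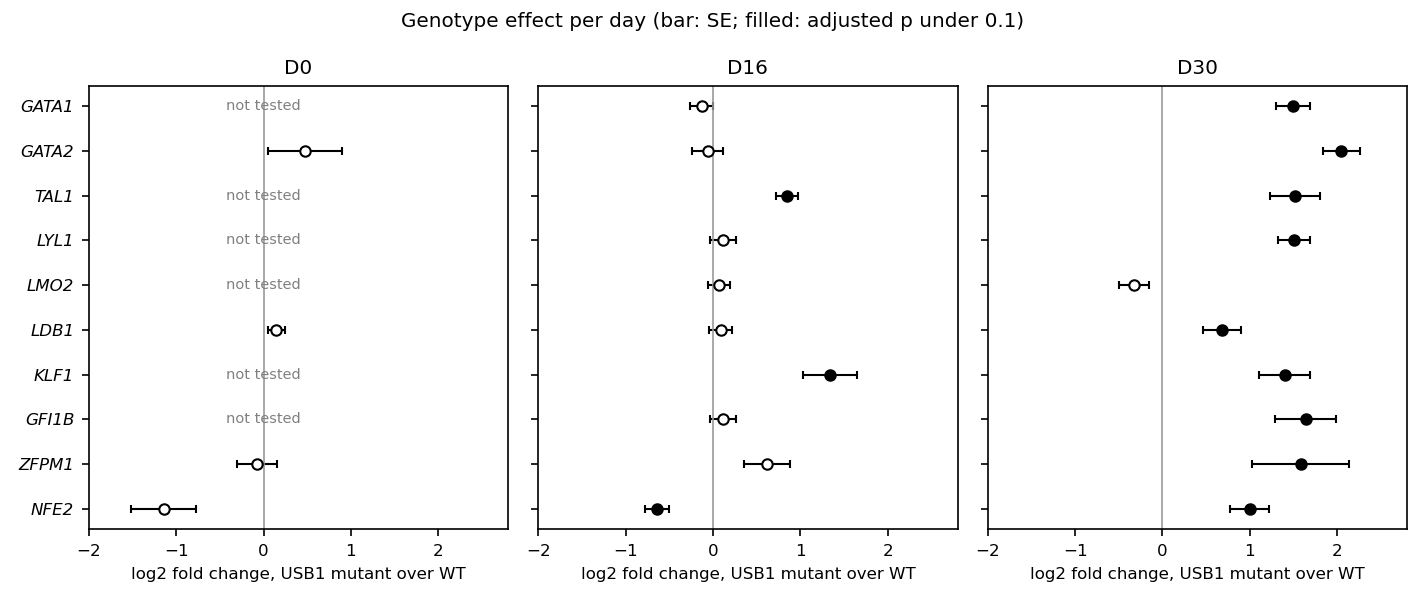
Log2 fold change of USB1 mutant over WT for each factor at D0, D16 and D30, with its standard error as a bar and filled points where the adjusted p was under 0.1. There are no filled points at D0, 3 at D16 (TAL1 and KLF1 to the right, NFE2 to the left) and 9 at D30, all to the right.

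At D30 nearly the whole machinery was higher in USB1 mutant cells: 9 of the 10 factors were called higher and 0 lower, where 10.8% of 14263 genes were called higher and 9.75% lower. The median log2 fold change of the 10 was 1.499, against -0.01 over all genes tested. In CPM, groups did not overlap for 9 of the 10, against 35.7% of all genes. LMO2 was the exception.

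The GATA factors and the TAL1 pair had the clearest separation. GATA2 measured 201, 199 and 313 CPM in USB1 mutant and 62.2, 53.4 and 57.2 CPM in WT libraries (2.05 ± 0.21, adjusted p = 0.00195). GATA1 measured 136, 88.2 and 100.2 CPM in USB1 mutant and 41.6, 32.8 and 41.5 CPM in WT libraries (1.49 ± 0.19, adjusted p = 0.00386). Even the lowest mutant library was over the highest WT library by a wide margin for both genes. LYL1, the relative that can stand in for TAL1 in blood stem cells, measured 437, 349 and 467 CPM in USB1 mutant and 121, 157 and 164 CPM in WT libraries (1.51 ± 0.18, adjusted p = 0.00300). TAL1 measured 681, 339 and 327 CPM in USB1 mutant and 183, 142 and 147 CPM in WT libraries (1.52 ± 0.29, adjusted p = 0.0125). Here replicate 1 of the mutant was far above the other mutant libraries, which were still above all WT libraries.

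The bridging proteins parted ways. LDB1 measured 354, 197 and 217 CPM in USB1 mutant and 155, 168 and 156 CPM in WT libraries (0.68 ± 0.22, adjusted p = 0.0755). In TPM LDB1 was at 181, 108 and 98.2 in USB1 mutant and 93.9, 103 and 87.0 in WT libraries, and the groups overlapped. LMO2, which was also the only factor whose mutant libraries reached below all WT libraries at D30, measured 124, 108 and 82.6 CPM in USB1 mutant and 139, 139 and 119 CPM in WT libraries (-0.33 ± 0.17, adjusted p = 0.24). LMO2 is also expressed in monocytes and endothelium.

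Of the late regulators and cofactors, KLF1 measured 397, 188 and 196 CPM in USB1 mutant and 119.9, 87.1 and 90.1 CPM in WT libraries (1.40 ± 0.29, adjusted p = 0.0190). NFE2 measured 579, 319 and 386 CPM in USB1 mutant and 213, 191 and 239 CPM in WT libraries (1.00 ± 0.22, adjusted p = 0.0238), so its direction was the opposite of that at D16. GFI1B, the repressor needed for red cells and platelets, measured 138, 47.9 and 63.2 CPM in USB1 mutant and 28.8, 26.0 and 25.6 CPM in WT libraries (1.64 ± 0.35, adjusted p = 0.0209). ZFPM1 measured 113, 24.3 and 25.9 CPM in USB1 mutant and 19.3, 22.1 and 13.3 CPM in WT libraries (1.58 ± 0.56, adjusted p = 0.0981). For both, replicate 1 of the mutant stood far above the other mutant libraries, and all 3 still lay above WT in CPM. In TPM ZFPM1 was at 39.7, 9.83 and 6.38 in USB1 mutant and 9.23, 8.23 and 4.83 in WT libraries, and the groups overlapped.

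USB1 mutant D30 replicate 1 had the highest level of its group for 8 of the 10 factors, with a median of 1.68 times the mean of the other mutant libraries and up to 4.52 times for ZFPM1. Without it 7 of the 10 factors were called higher. GATA1 (1.29), GATA2 (2.16), TAL1 (1.09), LYL1 (1.47), KLF1 (0.96), GFI1B (1.04) and NFE2 (0.72) kept their calls, with adjusted p from 0.00110 for GATA2 to 0.0230 for NFE2, while LDB1 (0.38, adjusted p = 0.101) and ZFPM1 (0.45, adjusted p = 0.263) lost theirs. The calls of LDB1 and ZFPM1 were also lost without any 1 of the WT D30 libraries (adjusted p 0.161 to 0.255). Of the 16 alternatives tried at D30, 5 lost the LDB1 call and 8 lost the ZFPM1 call.

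**Figure D3:**
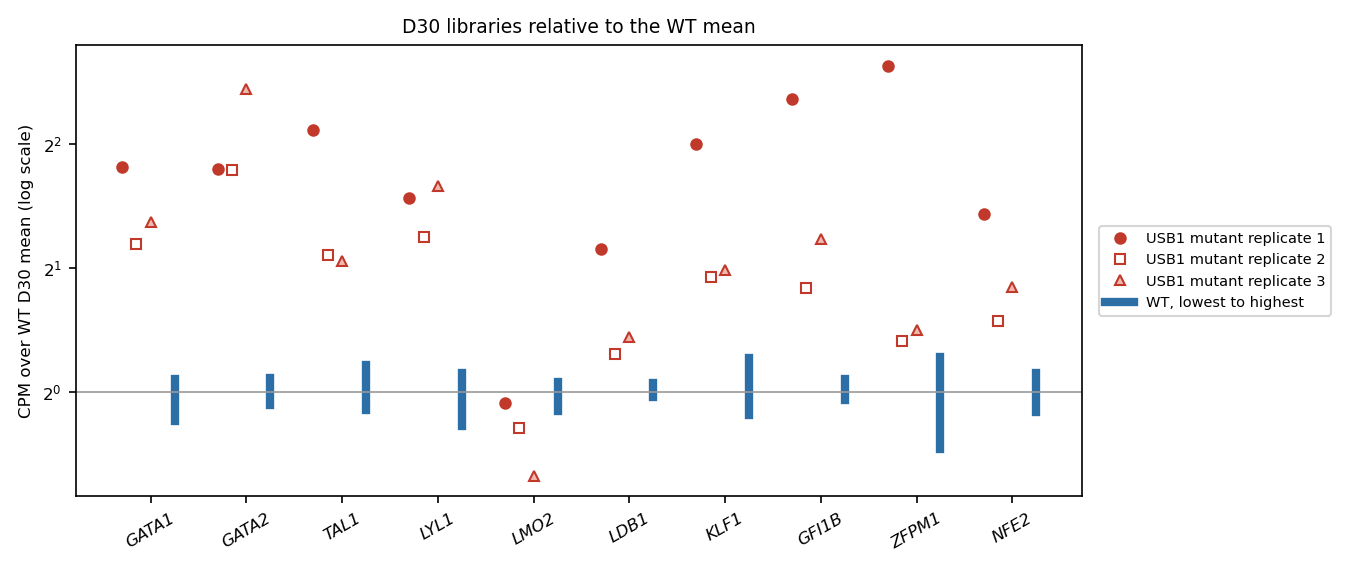
CPM of each factor in each USB1 mutant D30 library divided by the mean of the WT D30 libraries, on a log scale, with the range of the WT libraries as a blue bar. Replicate 1 (filled circles) stands high for TAL1, LDB1, KLF1, GFI1B, ZFPM1 and NFE2, and for LMO2 all 3 mutant libraries lie under the WT mean.

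Most of the factors were higher at D30 than at D16 in USB1 mutant cells, and GATA1 was at about the same level. The 2 days are different cell populations, and a batch of libraries cannot be told apart from the day. In USB1 mutant cells 6 of 10 factors were higher at D30 than at D16, where 34.7% of genes were higher, and 1 was lower, where 35.1% were lower. Those higher were KLF1 (3.36 ± 0.31), LYL1 (1.62 ± 0.23), NFE2 (1.44 ± 0.19), TAL1 (1.05 ± 0.22), LMO2 (0.84 ± 0.14) and LDB1 (0.81 ± 0.17), with adjusted p of 0.000450 or less. Without USB1 mutant D30 replicate 1 the changes of TAL1 and LDB1 were 0.62 and 0.50 and still called. GATA2 fell by 0.46 (SE 0.19, adjusted p = 0.0427), a call lost without replicate 1 (adjusted p = 0.143) or replicate 2 (adjusted p = 0.1999) of USB1 mutant D30. GATA1 (-0.07 ± 0.16), GFI1B (0.30 ± 0.27) and ZFPM1 (0.45 ± 0.43) were not called. Without USB1 mutant D30 replicate 1 the values of GFI1B and ZFPM1 were -0.30 (adjusted p = 0.167) and -0.69 (adjusted p = 0.0515), so that ZFPM1 was then called lower. Without USB1 mutant D30 replicate 2, GFI1B (0.62) and ZFPM1 (0.85) were called higher.

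In WT cells the GATA factors and GFI1B were lower at D30 than at D16. GATA2 fell by 2.52 on the log2 scale (SE 0.20, adjusted p = 9.35e-09), GATA1 fell by 1.65 (SE 0.17, adjusted p = 4.05e-07) and GFI1B fell by 1.19 (SE 0.28, adjusted p = 0.00128), 3 of 10 factors lower where 35.1% of genes were lower. KLF1 (3.33 ± 0.32), LMO2 (1.28 ± 0.14) and TAL1 (0.42 ± 0.22, adjusted p = 0.0992) were the 3 called higher, where 31.6% of genes were higher. The TAL1 call was lost in 18 of the 27 settings tried, among them without WT D30 replicate 1 (0.30, adjusted p = 0.294).

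The difference between these changes was tested directly as the interaction of genotype with day. It was called for 5 of the 10 factors, all toward a larger genotype effect at D30 than at D16, where 10.3% of 16829 genes were called in that direction and 10.2% in the other. These were GATA2 (2.06 ± 0.27, adjusted p = 0.000155), GATA1 (1.58 ± 0.23, adjusted p = 0.000518), NFE2 (1.60 ± 0.26, adjusted p = 0.000827), LYL1 (1.35 ± 0.32, adjusted p = 0.00934) and GFI1B (1.49 ± 0.39, adjusted p = 0.0157). All 5 calls were kept in the 27 alternatives tried, and without USB1 mutant D30 replicate 1 the GFI1B value was 0.89 (adjusted p = 0.0227). KLF1 was higher in USB1 mutant cells on both days by about the same factor, and its interaction was 0.03 ± 0.44. TAL1 (0.63 ± 0.31, adjusted p = 0.183), LDB1 (0.56 ± 0.24), ZFPM1 (0.93 ± 0.62) and LMO2 (-0.44 ± 0.19) were not called. TAL1 was called without USB1 mutant D30 replicate 2 (0.78) or 3 (0.81), and so was LDB1 (0.70 and 0.66), which DESeq2 also called (0.58). LMO2 was called in the other direction without USB1 mutant D30 replicate 1 (-0.57) or WT D16 replicate 3 (-0.51).

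**Figure D4:**
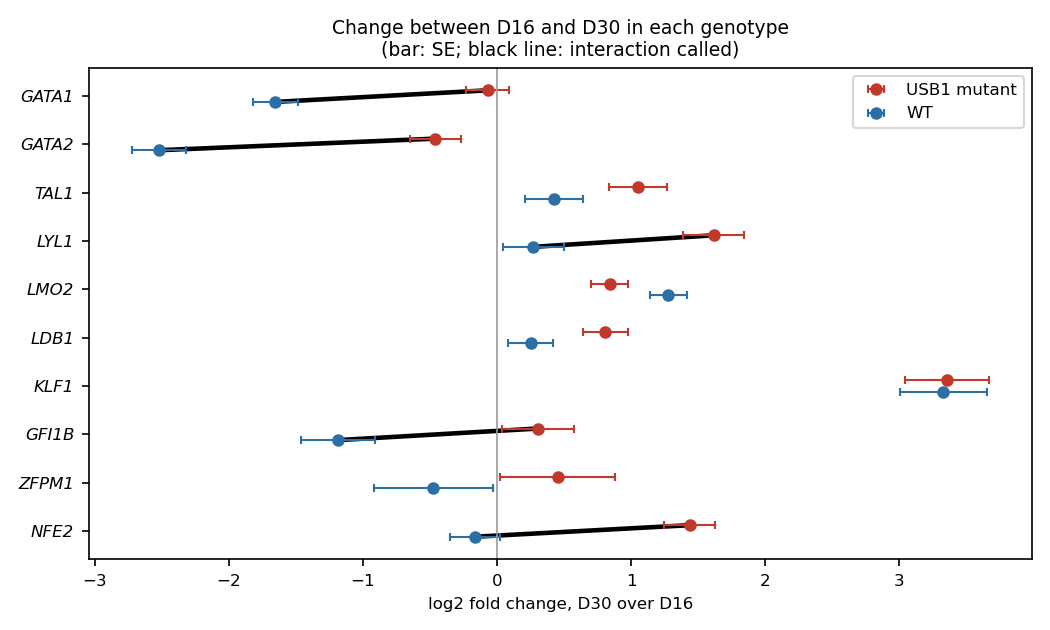
Log2 fold change of D30 over D16 in USB1 mutant (red, upper) and WT cells (blue, lower) for each factor, with standard errors, and a black line where the interaction was called. WT points lie far left of mutant points for GATA1, GATA2, GFI1B, LYL1 and NFE2, and almost on top of them for KLF1.

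Ordered by TPM, the most abundant factors of D16 progenitors were GATA2 (175 ± 2.15), LYL1 (136 ± 22.5), NFE2 (135 ± 14.1) and GATA1 (118 ± 16.0 TPM) in USB1 mutant cells, and NFE2 (196 ± 20.3), GATA2 (168 ± 44.1), GATA1 (119.9 ± 8.59) and LYL1 (117 ± 13.9 TPM) in WT cells (SD, n = 3). Among these leading 4, the only neighbours whose ranges did not overlap were GATA2 and LYL1 in USB1 mutant cells. KLF1 (22.5 ± 9.47 in USB1 mutant, 7.95 ± 2.66 TPM in WT cells) and ZFPM1 (13.8 ± 7.78 and 6.65 ± 0.825 TPM) were the lowest in both genotypes. At D30 LYL1 (370 ± 28.6) and NFE2 (322 ± 88.1 TPM) led in USB1 mutant cells, with KLF1 (203 ± 85.8) and TAL1 (192 ± 66.4 TPM) next and all neighbours overlapping. In WT cells NFE2 (202 ± 13.5) stood apart from LYL1 (165 ± 22.9) and LMO2 (162 ± 34.3 TPM), and GATA1 (44.2 ± 4.97) and GATA2 (39.8 ± 2.19 TPM) overlapped near the bottom of the order.

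Balances within a library were compared by exact permutation tests of log2 TPM ratios, in which 3 against 3 libraries cannot give a p under 0.1, over 12 comparisons. The ratio of GATA1 to GATA2 was 0.588, 0.692 and 0.756 in USB1 mutant and 0.597, 0.746 and 0.879 in WT libraries at D16 (exact p = 0.5, adjusted p = 0.667). It was lower in USB1 mutant cells in 3 of 3 same-numbered pairs at D16 (exact paired p = 0.25, the smallest that 3 pairs allow). At D30 it was 1.02, 0.741 and 0.582 in USB1 mutant and 1.17, 0.957 and 1.20 in WT libraries (exact p = 0.2, adjusted p = 0.343). At D0 this ratio rests on 2 counts of GATA1 and is not read. The ratio of GATA1 to SPI1, the myeloid factor that binds and opposes GATA1, was 0.630, 0.740 and 0.634 in USB1 mutant and 0.512, 0.512 and 0.446 in WT libraries at D16. At D30 it was 0.281, 0.177 and 0.159 in USB1 mutant and 0.0647, 0.0410 and 0.0542 in WT libraries. The groups were apart on both days (exact p = 0.1 each, the smallest possible, adjusted p = 0.24), and the mean log2 difference was 0.45 at D16 and 1.93 at D30. The ratio of TAL1 to LYL1 was also apart at D16, at 0.652, 0.516 and 0.550 in USB1 mutant and 0.316, 0.300 and 0.403 in WT libraries (exact p = 0.1, adjusted p = 0.24), and it overlapped at D30. The ratio of KLF1 to GATA1 was 0.141, 0.169 and 0.248 in USB1 mutant and 0.0402, 0.0712 and 0.0934 in WT libraries at D16 (log2 difference 1.49, exact p = 0.1, adjusted p = 0.24), and it overlapped at D30. At D0 WT libraries had 0 counts of GATA1 and USB1 mutant libraries 2. The D0 difference (-1.13) thus rests on the pseudocount and is not read. At D16 the ratios of GATA1 to SPI1, TAL1 to LYL1 and KLF1 to GATA1 were lower in USB1 mutant cells in 0 of 3 same-numbered pairs (exact paired p = 0.25 each).

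The deposited mean transcript length, which moves when the mix of a gene's transcripts moves, was compared for 22 pairs of gene and day with at least 20 counts in every library. Groups were apart for 5 of the 22 and the smallest adjusted p was 0.44 (exact permutation test, smallest possible p 0.1). TAL1 had 2135 to 2649 bases in USB1 mutant and 2656 to 2882 bases in WT libraries at D30, and LDB1 had 2188 to 2211 bases in USB1 mutant and 2265 to 2295 bases in WT libraries at D16. ZFPM1 was also shorter in USB1 mutant libraries at D16. In the other direction, ZFPM1 had 3439 to 5135 bases in USB1 mutant and 2557 to 2961 bases in WT libraries at D0, and LYL1 had 1201 to 1220 bases in USB1 mutant and 1168 to 1188 bases in WT libraries at D30. For KLF1, which has 1 annotated transcript, values ran from 1303 to 1379 bases over all 18 libraries, a measure of the drift between libraries alone. TAL1 was shorter at D30 than at D16 in both genotypes, with 3163 to 3375 bases in USB1 mutant and 3189 to 3399 bases in WT libraries at D16.

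Among 23 partners of these factors (E proteins, SSBP proteins that hold LDB1, ETO corepressors, LIM-only relatives, the CoREST module of GFI1B, small MAF proteins, BACH1, and ID inhibitors), 8 of 21 tested were called higher and 1 lower at D30, with a median log2 fold change of 0.31 (all genes: 10.8% higher, 9.75% lower). TCF3, the E protein partner of TAL1, had 246 ± 87.9 CPM in USB1 mutant and 96.3 ± 10.5 CPM in WT cells (1.35 ± 0.25, adjusted p = 0.0113). MAFG, a small MAF that pairs with NFE2, had 276 ± 69.2 CPM in USB1 mutant and 136 ± 15.4 CPM in WT cells (1.03 ± 0.20, adjusted p = 0.0136), and the LIM-only relative LMO4 was also called (0.98 ± 0.21, adjusted p = 0.0217). ID1, which holds E proteins off DNA, was the 1 called lower (-0.79 ± 0.24, adjusted p = 0.0659). At D16, 5 of 22 partners were called higher and 3 lower (median 0.22), where 13.1% of all genes were higher and 15.3% lower. Without USB1 mutant D16 replicate 2, 2 of 22 were called higher and 2 lower (median 0.23). No other D16 library was left out for this list, so the fall in calls cannot be laid to that library. The largest D16 calls were ID3 (1.60 ± 0.36, adjusted p = 0.0119) and LDB2 (1.52 ± 0.43, adjusted p = 0.0323), and the GFI1B cofactor RCOR1 was lower (-0.60 ± 0.14, adjusted p = 0.0131).

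Of relatives from the same gene families, 3 of 14 tested were called higher and 3 lower at D30 (median 0.15), where 10.8% of all genes were higher and 9.75% lower, and 1 of 12 was higher and 3 lower at D16 (median -0.26), where 13.1% were higher and 15.3% lower. ZFPM2, the relative of ZFPM1, was higher at both D16 (1.27 ± 0.16, adjusted p = 0.000730) and D30 (1.35 ± 0.25, adjusted p = 0.0117). GFI1, the myeloid relative of GFI1B, was lower at D16, with 98.1 ± 8.69 CPM in USB1 mutant and 175 ± 30.4 CPM in WT cells (-0.88 ± 0.16, adjusted p = 0.00344), and higher at D30 (1.03 ± 0.32, adjusted p = 0.0692). KLF2 was lower on both days (-1.14 ± 0.22 and -1.24 ± 0.21, adjusted p = 0.00518 and 0.00854).

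Among red cell genes, many of which these factors are known to act on, 26 of 34 were called higher in USB1 mutant cells at D30 and 0 lower, with a median of 1.35 (all genes: 10.8% higher, 9.75% lower). The median without USB1 mutant D30 replicate 1 was 0.83, with 22 of 34 higher and 0 lower. HBA2, an alpha-globin gene, had 18075 ± 4693 CPM in USB1 mutant and 3103 ± 591 CPM in WT cells (2.55 ± 0.27, adjusted p = 0.00196), and its near-identical copy HBA1 had 2.47 ± 0.27, so that reads may be split between them. The embryonic HBE1 had 20602 ± 8145 CPM in USB1 mutant and 3283 ± 579 CPM in WT cells (2.65 ± 0.31, adjusted p = 0.00263). At D16, 9 of 32 were higher and 2 lower (median 0.49), where 13.1% of all genes were higher and 15.3% lower. The 3 with the smallest adjusted p were RHAG (1.55 ± 0.13, adjusted p = 8.95e-05), HEMGN (1.67 ± 0.25, adjusted p = 0.00170) and KEL (0.96 ± 0.16, adjusted p = 0.00238), which encode a channel of the red cell membrane, a nuclear protein of erythroid progenitors and a blood group antigen. EPOR (-0.49 ± 0.17, adjusted p = 0.0697) and TRIM58 (-0.52 ± 0.14, adjusted p = 0.0294) were the 2 called lower at D16, and both were called higher at D30 (1.08 ± 0.33 and 2.33 ± 0.37, adjusted p = 0.0638 and 0.00699). Over all genes tested the median was 0.01 at D16 and -0.01 at D30.

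Of platelet and megakaryocyte genes, 11 of 16 were called higher and 1 lower at D16 (median 0.95), where 13.1% of all genes were higher and 15.3% lower. At D30, 2 of 11 were higher and 1 lower (median 0.15), where 10.8% of all genes were higher and 9.75% lower. RAB27B, of platelet granule secretion, had 473 ± 67.4 CPM in USB1 mutant and 191 ± 28.4 CPM in WT cells at D16 (1.27 ± 0.16, adjusted p = 0.000622). PPBP and GP1BA, a platelet chemokine and a platelet receptor, were also higher (0.93 ± 0.14 and 1.09 ± 0.17, adjusted p = 0.00162 and 0.00169), and MYL9 was lower (-0.78 ± 0.23, adjusted p = 0.0333).

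**Figure D5:**
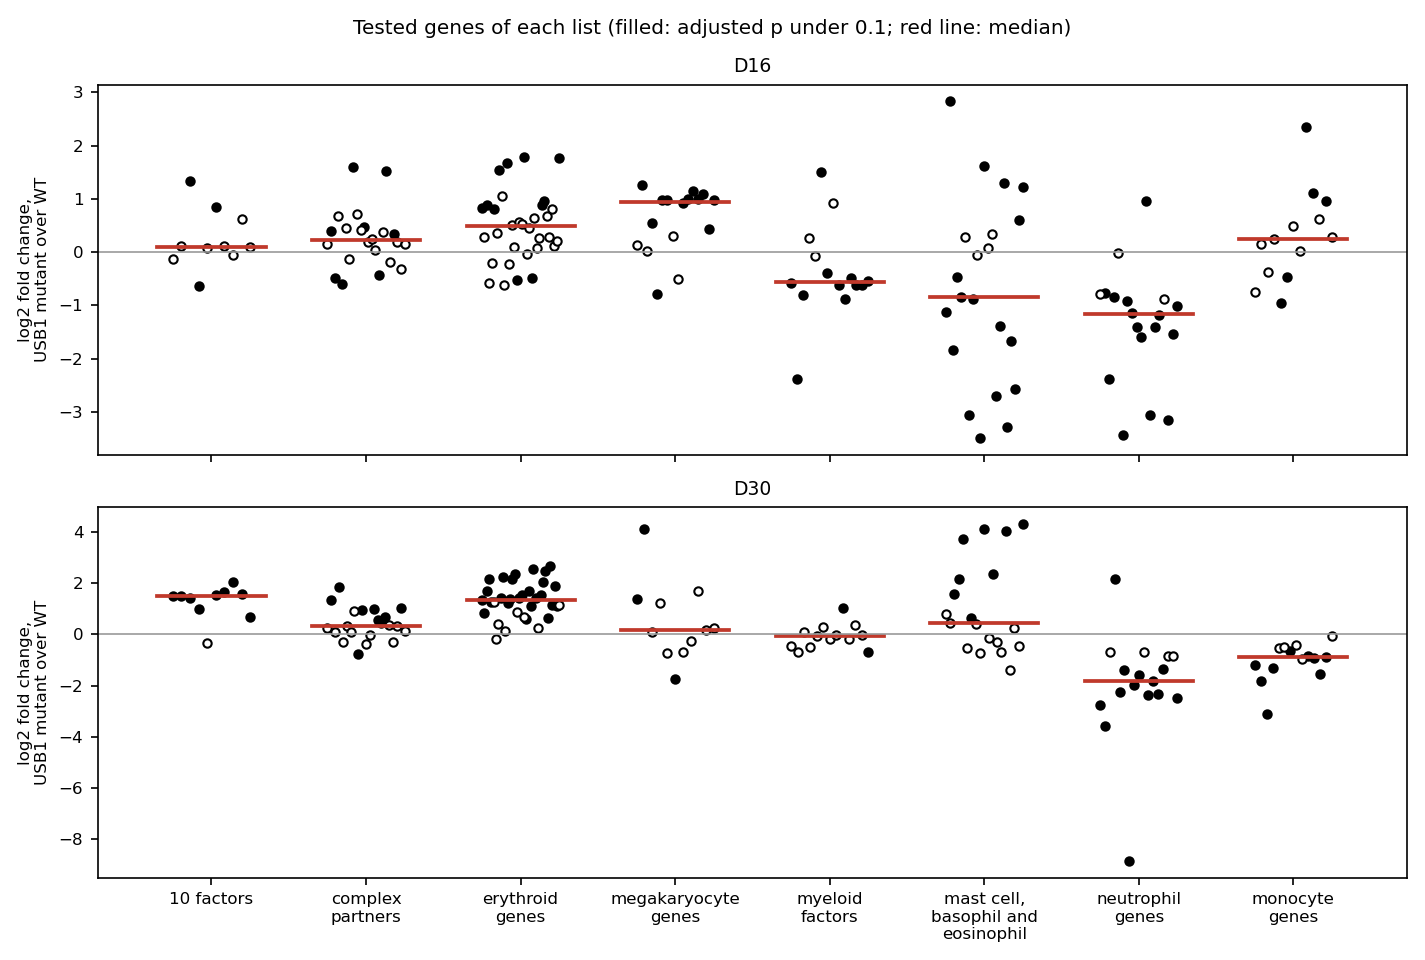
Log2 fold change of USB1 mutant over WT for the tested genes of each list at D16 (upper) and D30 (lower), filled where the adjusted p was under 0.1, with the median as a red line. At D30 the medians of the 10 factors (1.499) and of the red cell genes (1.35) lie above 0 and those of the neutrophil (-1.83) and monocyte genes (-0.90) below it. The lowest neutrophil point is OLFM4, whose fitted fold depends on the prior count because it was at 0 in USB1 mutant libraries.

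Genes of other cell types moved on the same days, and their part in the results for the factors was not tested. At D30, where 9.75% of all genes tested were lower and 10.8% higher, 12 of 17 neutrophil genes were lower and 1 higher. The summed level of the neutrophil genes was 731 to 1892 CPM in USB1 mutant and 4513 to 9363 CPM in WT libraries. MMP9 (-2.26 ± 0.19, adjusted p = 0.00133) and MMP8 (-1.99 ± 0.31, adjusted p = 0.00647) were among those lower, and OLFM4 was at 0 in all 3 USB1 mutant libraries. Of 14 monocyte and macrophage genes 9 were lower and 0 higher, with sums of 1990 to 3393 CPM in USB1 mutant and 5317 to 6993 CPM in WT libraries, and none of the list was at 0 in either group. The mast cell, basophil and eosinophil list, whose cells use GATA1 and GATA2 as well, had 8 of 19 higher and 0 lower at D30, and its sums overlapped, at 3823 to 9190 CPM in USB1 mutant and 1914 to 7760 CPM in WT libraries. The genes with the smallest adjusted p included KIT, at 439 ± 191 CPM in USB1 mutant and 25.9 ± 15.1 CPM in WT cells (4.11 ± 0.53, adjusted p = 0.00386) and the tryptase TPSB2, at 269 ± 84.9 and 14.1 ± 8.31 CPM (4.29 ± 0.45, adjusted p = 0.00196), while CMA1 was at 0 in all WT libraries and reached at most 0.667 CPM in USB1 mutant libraries.

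At D16, where GATA1 and GATA2 were not called, 12 of 21 genes of that list were lower and 5 higher. Of all genes tested at D16, 15.3% were lower and 13.1% higher. The sums over the list were 7966 to 12127 CPM in USB1 mutant and 36077 to 65776 CPM in WT libraries, with no gene at 0 in either group. The eosinophil genes RNASE2 (-2.69 ± 0.21, adjusted p = 8.74e-05) and PRG3 (-3.48 ± 0.30, adjusted p = 0.000138) were among those lower, and KIT was higher (1.62 ± 0.25, adjusted p = 0.00183). Of 18 neutrophil genes 14 were lower and 1 higher, with sums of 3487 to 5268 CPM in USB1 mutant and 5567 to 13031 CPM in WT libraries. Of 14 other blood transcription factors, some of which oppose or work with GATA1, 10 were lower and 1 higher (median -0.56), with CEBPE (-2.38 ± 0.20, adjusted p = 0.000120) and MYB (-0.81 ± 0.13, adjusted p = 0.00188) lower and IRF8 higher (1.504 ± 0.33, adjusted p = 0.00988). This list shares CEBPE with the neutrophil list, GFI1 with the gene family relatives and ERG with the endothelial list, so the counts of the lists overlap. SPI1 had 162 ± 18.6 CPM in USB1 mutant and 237 ± 11.4 CPM in WT cells at D16 (-0.58 ± 0.13, adjusted p = 0.00983). At D30, 1 of 13 of these other blood transcription factors was lower and 1 higher (median -0.07), where 9.75% of all genes were lower and 10.8% higher.

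Of 12 endothelial genes tested at D16, 6 were higher and 0 lower (median 0.94), where 13.1% of all genes were higher and 15.3% lower. ESAM (1.14 ± 0.22, adjusted p = 0.00489) and TEK (1.49 ± 0.29, adjusted p = 0.00560) were among those higher. The sums over the endothelial list were 508 to 561 CPM in USB1 mutant and 384 to 500.2 CPM in WT libraries, with no gene at 0. At D30, 1 of 6 endothelial genes tested was higher and 2 lower (median -0.49), where 10.8% of all genes were higher and 9.75% lower. The D30 sums were 241 to 358 CPM in USB1 mutant and 417 to 498 CPM in WT libraries, with EMCN and SOX17 at 0 in both. TAL1 and LMO2 are also transcribed in endothelium. Of 7 pluripotency genes tested at D16, 3 were higher and 0 lower (median 0.06). Those higher were LIN28A (1.53 ± 0.25), DNMT3B (1.00 ± 0.25) and SALL4 (0.52 ± 0.15). POU5F1 (0.06 ± 0.26), NANOG (-0.23 ± 0.40), DPPA4 (-0.21 ± 0.17) and ZFP42 (-0.31 ± 0.28) were not called. The sums over the pluripotency list were 220.3 to 243 CPM in USB1 mutant and 104 to 163 CPM in WT libraries, with PRDM14 at 0 in both. Of 8 progenitor and lymphoid genes tested at D16, 1 was higher (CD3D, 2.27 ± 0.44) and 2 lower (median 0.03). At D30, 0 of 5 were higher and 3 lower (median -0.79). Over all genes the shares were 13.1% higher and 15.3% lower at D16, and 10.8% and 9.75% at D30. PTPRC, which encodes CD45, had 489 ± 83.4 CPM in USB1 mutant and 707 ± 115 CPM in WT cells at D16 (-0.57 ± 0.17, adjusted p = 0.0389), and 371 ± 112 and 643 ± 93.7 CPM at D30 (-0.79 ± 0.24, adjusted p = 0.0676). CD34 was not called at D16 (0.27 ± 0.23, adjusted p = 0.444) or D30 (-0.10 ± 0.29, adjusted p = 0.864).

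Over the 18 libraries the genes most like KLF1 in log2(CPM + 1) were SLC6A19 (Pearson r = 0.994), BLVRB (0.993), ALAS2 (0.991) and RILP (0.991), of which ALAS2 makes heme in red cells and BLVRB is an enzyme of red cells. For GATA1 they were LPAR5 (0.995), FAH (0.994), TESC (0.993) and ITPR1 (0.993), and LPAR5 was also among those of GATA2, with SIGLEC6 (0.994), CHN2 (0.992) and TEC (0.991). For TAL1 they were GRAP2 (0.993), STAT5A (0.993), RTF2 (0.993) and CAT (0.991). All these values are set mainly by the difference between D0 and the later days, which all of these genes share, and are given as a description.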

How the data were processed

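Total RNA of 18 H1 libraries was sequenced by the authors, who trimmed reads with Trimmomatic 0.36 and quantified them with Salmon 0.13.1 against an Ensembl GRCh38 transcriptome. The authors deposited 3 tables from tximport: estimated counts (expected counts per gene), TPM abundance and mean effective transcript length. The library kit was directional, and whether quantification used strand is not given in the sources used here, so genes overlapping GATA2, TAL1, LMO2, GFI1B, ZFPM1 and NFE2 may share reads with them. Counts were rounded, filtered with filterByExpr, scaled by TMM and tested with edgeR 4.0.16 (glmQLFit, glmQLFTest; R 4.3.3), with Benjamini-Hochberg adjustment over all genes tested and calls at 0.1, the threshold of the study. Genotypes were compared within the 6 libraries of a day, and changes between days and interactions in a fit of all 18. The edgeR test was tried on simulated counts for the genotype comparison of each day, for D16 over D0 in WT cells and for the interaction of D30 minus D16. The simulated spread was the same on every day and smaller than that of the D30 libraries. The biological coefficient of variation, edgeR's estimate of the spread between libraries, was 0.130 at D0, 0.170 at D16 and 0.223 at D30. The trial thus does not cover the spread at D30, and the alternatives were not simulated. Rows without a symbol held 0.238% of counts. Ratios used a pseudocount of 0.1 TPM and two-sided exact permutation tests.

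The 10 factors and the gene lists were chosen with earlier results of these data known. All 10 factors are described on every day. From a list, called genes with the smallest adjusted p were named, up to 3 in each direction and day, and from the correlations the 4 genes with the highest Pearson r among those with a mean of at least 5 CPM. SPI1, CMA1, OLFM4, CD34, the pluripotency genes not called at D16, and TRIM58 and EPOR at D30, were named after their values were seen. Same-numbered USB1 mutant and WT libraries deviated together at D0 (correlations 0.25, 0.145 and 0.19) and D16 (0.119, 0.2 and 0.323), and the numbers were taken to pair the libraries on those days. The main genotype tests and the shares over all genes did not use this pairing, which entered only the replicate block and the paired ratio tests. Alternatives were DESeq2 1.42.0, limma-voom (limma 3.58.1), other scalings and filters, transcript lengths as offsets, a replicate block, a threshold of 0.05 and leaving out each library.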

Additional observations from a re-analysis of the deposited data

Results flagged for a closer look

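For 5 factors the genotype effect differed between D30 and D16 by the interaction test in edgeR's quasi-likelihood fit of all 18 libraries. The interaction, as the log2 fold change of USB1 mutant over WT at D30 minus that at D16, was 2.06 for GATA2, 1.60 for NFE2, 1.58 for GATA1, 1.49 for GFI1B and 1.35 for LYL1. NFE2 was the 1 of these that was called on both days, lower in USB1 mutant cells at D16 and higher at D30.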

How the results depend on the processing

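Over 84 log2 fold changes of the factors and 2002 values under the alternatives, 1926 kept their direction and side of the threshold, 34 lost a call, 19 gained one and 23 changed sign, all of these from values that were not called. At D0, 6 of the factors had too few counts to be tested. At D0 the number of genes called was 432, against 174 with transcript lengths as offsets, 1718 with the replicate block, 185 in a fit of all 18 libraries, 227 at a threshold of 0.05 and 116 to 393 leaving out a library. At D16 it was 4135 and 2450 to 5778 leaving out a library. At D30 it was 2933, against 4892 in the fit of all 18 libraries, which also called LMO2 lower, 1801 at 0.05 and 1452 to 2958 leaving out a library. For the interaction of D16 minus D0 it was 1281, against 663 with lengths, 661 at 0.05 and 602 to 2207 leaving out a library, and DESeq2 called 1 factor where edgeR called 0. The causes were not tested. The GATA1 to GATA2 difference at D0 was 0.32, against 1.94 with a pseudocount of 0.01 TPM and 1.77 from counts.

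Signs changed as follows. Leaving out a library, the genotype effect ranged from -0.20 to 0.10 for ZFPM1 at D0 (-0.87 with lengths) and from -0.23 to 0.13 for GATA2 at D16. The D30 over D16 change in USB1 mutant cells ranged from -0.28 to 0.089 for GATA1, -0.30 to 0.62 for GFI1B and -0.69 to 0.89 for ZFPM1. The interaction of D16 minus D0 ranged from -0.33 to 0.84 for LYL1 and -0.11 to 0.086 for LDB1 (0.042 with lengths), and that of D30 minus D16 from -0.41 to 0.36 for KLF1 (-0.0094 with no count filter, -0.059 with lengths) and -0.22 to 1.37 for ZFPM1.

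With the replicate block, 9 factors were called at D30 and 3189 genes, though same-numbered libraries did not deviate together there (correlations 0.147, -0.0427 and 0.257), and the D30 over D16 call of TAL1 in WT cells was lost (adjusted p = 0.105, edgeR). Apart from that call and the call of ZFPM1 gained at D16, the block changed no call of a factor. Counts of gene lists without USB1 mutant D30 replicate 1 or USB1 mutant D16 replicate 2 were chosen after seeing the data. Without the first, 9 of 18 neutrophil genes were lower at D30, and without the second, 13 of 18 were lower at D16.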
